A study of Mus musculus with 10 samples.

Results

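The genes described here are the ADAM, serine protease and proprotein convertase genes of the mouse, taken by name: every gene whose symbol is Adam, Prss or Pcsk followed by a number and that had a curated RefSeq mRNA (an NM_ transcript) in the deposited tables. This gave 69 genes with 77 transcripts, out of 69553 genes in all and 16063 genes with an NM_ transcript. They were 32 Adam, 30 Prss and 7 Pcsk genes. RefSeq holds 81 protein-coding genes that match the name rule, and the other 12, Adam19, Adam34l, Pcsk1n, Prss1, Prss2, Prss3, Prss22, Prss28, Prss32, Prss34, Prss41 and Prss47, were listed in no sample.

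Total RNA depleted of rRNA was sequenced from mature sperm and from testes of mice, which the labels give as C57BL/6 and aged 3 to 5 months. The study's methods name C57BL/6J and give the control mice a younger age range, in weeks. The labels give 4 groups: control sperm (4 samples), control testes (2), cadmium sperm (2) and cadmium testes (2), and describe arms of 50 mice. Cadmium mice received 1 intraperitoneal dose of CdCl2 at 3 mg/kg and control mice received saline, and tissue was taken 35 days later. Each control sperm sample was a pool of mice, collected by swim-out from the vas deferens and cauda epididymis and treated with a lysis buffer against somatic cells, and the control testes of the same mice were arranged into 2 samples. How many mice stood behind each cadmium sample is not given in the sources used here. In every comparison p-values measure the spread between these samples. The main test of control sperm against control testes took the samples as independent, though they came from the same mice. Sperm-Control-1 was left out of the tests because the study left it out, and its values are given with the others.

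ADAM proteins are membrane proteins with a metalloprotease-like and a disintegrin domain. Many of them are made only in male germ cells, where pairs such as ADAM1 with ADAM2 (fertilin) assemble in the endoplasmic reticulum and where ADAM3 (cyritestin) is needed for sperm to enter the oviduct and to bind the egg coat. Most Prss genes encode trypsin-like serine proteases, several of them found in spermatids and on sperm. Most proprotein convertases cut precursors at basic residues, with Pcsk4 the convertase of male germ cells. Mature sperm transcribe almost nothing, so their RNA is what was left from spermatids or taken up later.

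The leading member differed between the tissues. Adam1a, which encodes the ADAM1 form that pairs with ADAM2 inside the testis, was the most abundant member in all 6 sperm samples and made up 57.5 to 72.8% of the FPKM of the members there (FPKM, fragments per kilobase scaled to library size, is a level corrected for length). Prss53, which encodes a protein with serine protease domains in tandem, was the most abundant in all 4 testes samples, with 44.1 to 48.9%. Adam1a lies at chr5:121518604-121521695, its neighbour Adam1b at chr5:121500096-121503435 and Prss53 at chr7:127885444-127892965 (RefSeq GRCm38.p6). Adam1b overlaps Tmem116 and Prss53 overlaps Zfp646, and whether the counting used strand is not given in the sources used here.

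The 250 bases before the transcript start of these genes are shown because the neighbours Adam1a and Adam1b went opposite ways between sperm and testes and Prss53 led in testes. Each is written from 5′ to 3′ on the gene's own strand, which is the minus strand for all of them, with any CCAAT box on either strand in capitals (RefSeq GRCm38.p6). The start RefSeq's window uses for Prss53 lies inside the gene span given above, so its window does too.
Adam1a, chr5:121521696-121521945: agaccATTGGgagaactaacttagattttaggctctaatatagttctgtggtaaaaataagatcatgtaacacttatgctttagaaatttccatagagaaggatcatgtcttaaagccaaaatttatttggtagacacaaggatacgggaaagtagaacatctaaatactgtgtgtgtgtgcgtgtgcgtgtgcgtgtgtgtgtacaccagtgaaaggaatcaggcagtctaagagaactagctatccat
Adam1b, chr5:121503436-121503685: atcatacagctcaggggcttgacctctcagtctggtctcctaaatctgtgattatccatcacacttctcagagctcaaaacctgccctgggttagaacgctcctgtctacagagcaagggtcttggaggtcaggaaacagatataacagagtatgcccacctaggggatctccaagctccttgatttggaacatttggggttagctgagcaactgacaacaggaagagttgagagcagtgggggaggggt
Prss53, chr7:127890971-127891220: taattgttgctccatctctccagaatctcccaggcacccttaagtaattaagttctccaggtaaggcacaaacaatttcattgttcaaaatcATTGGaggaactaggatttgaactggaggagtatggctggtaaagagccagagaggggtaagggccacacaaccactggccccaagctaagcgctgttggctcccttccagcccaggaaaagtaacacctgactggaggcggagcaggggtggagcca

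The windows of Adam1a and Adam1b were not alike, with 36.1% identical bases at the best ungapped alignment. RefSeq windows from 250 bases before to 50 after the start were found for 42 of the 69 members, 49 windows in all, and were searched on both strands. The cAMP response element TGACGTCA, a site for CREM-type factors of spermatids, was in 1 of the 49 windows, that of Pcsk1, against 1.79% of all 32851 windows. TATAAA was in 8.16% of member windows against 13.6% of all, GGGCGG in 40.8% against 35.7% and CCAAT in 40.8% against 37.4%. These are matches of letters in a window and not sites shown to be used.

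Far fewer members were listed in sperm than in testes. The control sperm samples listed 5, 18, 6 and 10 members (Sperm-Control-1 to 4) and the cadmium sperm samples 20 and 20. The control testes listed 53 and 48 and the cadmium testes 51 and 53. The sperm tables were also shallower: totals of expected counts were 366455 to 1254477 in sperm and 2606086 to 2866856 in testes, and the part of depth in the difference was not tested. Genes with an NM_ transcript as a whole were listed at 9.66 to 48.7% in sperm and 71.8 to 76.3% in testes. At 3 counts or more, 4 to 12 members remained in a sperm sample and 24 to 28 in a testes sample. That a sperm table did not list a member does not show that it was absent from sperm.

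**Figure D1:**
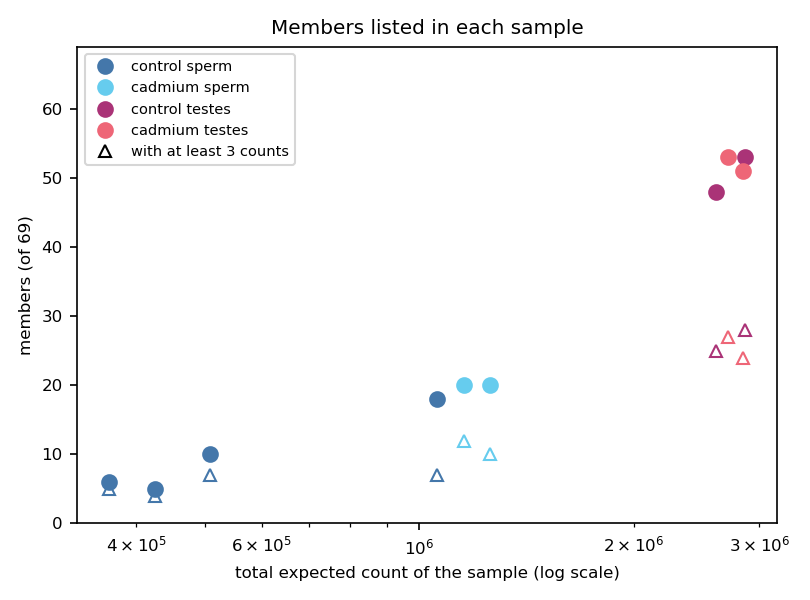
Number of the 69 members listed in each sample (filled circles) and with at least 3 expected counts (open triangles, y axis) against the total expected count of the sample (x axis, log scale), coloured by group. The sperm samples hold 5 to 20 listed members at totals up to 1254477, and the testes samples 48 to 53 at totals from 2606086.

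Of the 69 members, 33 (47.8%) were listed in no sperm sample, against 33.5% of all genes with an NM_ transcript. Adam1a and Prss53 were listed in all 10 samples. Adam33, a broadly expressed ADAM, and Prss29, an implantation serine protease, were listed in no testes sample, and 6 members in a single sample only. Counts were low for most: 63 members stayed under 10 counts in every sperm sample and 54 in every testes sample. Members together took 0.0187 to 0.0352% of the FPKM of a sperm sample and 0.0424 to 0.0532% of that of a testes sample.

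**Figure D2:**
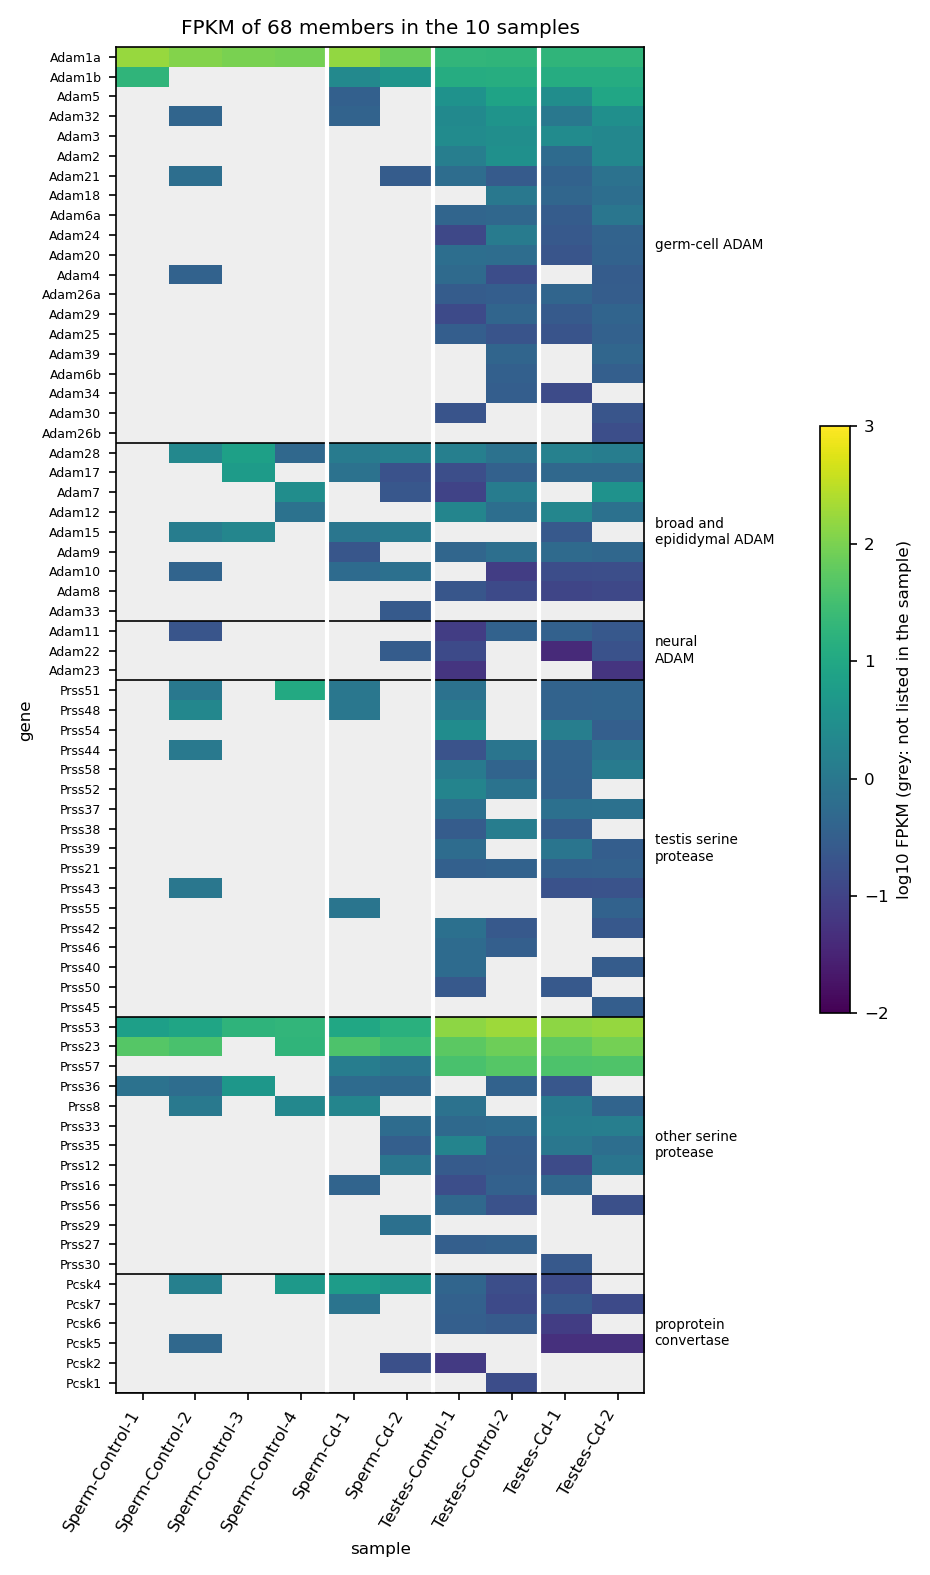
Level of 68 members (rows, grouped by role and ordered by mean) in the 10 samples (columns), as log10 FPKM by colour, with grey where the sample does not list the gene. Adam1a and Prss53 are coloured in every column, most other germ-cell ADAM and testis serine protease rows are grey in sperm, and Pcsk4 is brighter in several sperm columns than in testes.

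Markers were set beside the labels and differed in direction. Prm2, a protamine of late spermatids and sperm, was at 184 to 438 FPKM in sperm and 147 to 281 in testes, and was called in neither arm. Tssk6, also of the spermatid and sperm list, was at 12.77 to 167.49 FPKM in sperm and 6.48 to 10.6 in testes, called higher in both arms. Of 8 genes of this list tested in control mice, 1 was called higher in sperm (background 4.19%) and 3 lower (17.8%). Of 7 in cadmium mice, 2 were higher (16.3%) and 4 lower (15.4%). Other genes of the same spermatid and sperm list went the other way: Prm1 was at 0 to 40.12 FPKM in sperm and 117.96 to 135.58 in testes, and Tnp1 at 0 to 6.21 and 88.12 to 139.96, and both were called lower in sperm in both arms. Of the summed markers, Sertoli cell genes stood at 0 to 0.96 FPKM in sperm and 0.11 to 1.95 in testes, and Odf1, a sperm tail gene, was listed in no sperm sample and in neither cadmium testes sample. Star, a Leydig cell gene, reached 27.49 FPKM in Sperm-Control-3 against 9.84 to 14.72 in testes, while the other 4 Leydig markers were at 0 in that sample and Insl3 was called lower in sperm in both arms. Epcam, an epithelial gene, was at 0 to 6.77 FPKM in sperm and 2.09 to 4.94 in testes. The part of other cell types in the results below was not tested, and in these bulk samples fewer cells of a type cannot be told from less RNA per cell.

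To ask how sperm differed from the testes, expected counts of all genes were compared with the quasi-likelihood test of edgeR, over genes that reached 1 FPKM in 2 or more samples. A call needed more than a 2-fold change and an adjusted p (Benjamini-Hochberg) below 0.05. In control mice 17 members passed the filter and 8 were called, beside a background of 22% of all genes tested. Of these, 2 were higher in sperm (background 4.19%) and 6 lower (background 17.8%). In cadmium mice 12 members passed and 7 were called, beside a background of 31.7%, with 2 higher (background 16.3%) and 5 lower (background 15.4%). Members passed the filter partly by being high in 1 tissue: 6 of the 17 in control mice passed through testes alone and 4 through sperm alone, and 4 and 1 of the 12 in cadmium mice. Those through testes alone were Adam1b, Adam2, Adam3, Adam5, Adam32 and Prss57 in control mice. In cadmium mice they were Adam3, Adam5, Adam32 and Prss33. For these genes the filter itself favoured a value lower in sperm. The median log2 fold change of sperm over testes was -1.83 for the members against -1.24 for all genes in control mice, and -1.75 against -0.29 in cadmium mice. The groups did not overlap in FPKM for 52.3% of all genes tested in control mice and 66.5% in cadmium mice. The control and cadmium comparisons share no samples.

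Adam1a was higher in sperm. Its level was 172, 117.6, 97.45 and 91.72 FPKM in Sperm-Control-1 to 4 and 153.4 and 77.04 in the cadmium sperm samples. The control testes held 19.58 and 18.63 FPKM, and the cadmium testes 18.86 and 18.36. The groups did not overlap, and the testes values were almost level while the sperm values ranged more widely. In control mice the log2 fold change was 2.21 with a standard error (SE) of 0.68 (edgeR, n = 3 and 2, adjusted p = 0.0221). It was 2.82 (SE 0.59) in cadmium mice (edgeR, n = 2 and 2, adjusted p = 2.05e-05).

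The control result for Adam1a was close to the threshold. Without Sperm-Control-2, Sperm-Control-4, Testes-Control-1 or Testes-Control-2 the log2 fold change was 1.87, 2.46, 2.06 and 2.05, and the edgeR adjusted p 0.0798, 0.130, 0.0950 and 0.124. In cadmium mice it lost the call only without Testes-Cd-1, at 2.50 (edgeR, adjusted p = 0.0750).

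Adam1b, which encodes the ADAM1 form that reaches the sperm surface, went the other way. It was at 12.39 and 12.76 FPKM in control testes, with 12.45 and 12.32 in cadmium testes, and at 0 in Sperm-Control-2, 3 and 4 and 2.21 and 3.99 in cadmium sperm. Sperm-Control-1, outside the tests, held 18.76 FPKM, above every testes sample. With 0 counts in 3 control sperm samples and 195.9 in control testes, its share of counts was at least 23.1-fold lower in control sperm, taking a floor of 3 counts over the group (edgeR, adjusted p = 0.00184). With Sperm-Control-1 kept the log2 fold change was -1.57 and the call was lost (edgeR, adjusted p = 0.403). In cadmium mice the log2 fold change was -1.77 (SE 0.62; edgeR, adjusted p = 0.0178), and the call was lost without Sperm-Cd-1, Testes-Cd-1 or Testes-Cd-2, at -1.27, -2.13 and -1.65 (edgeR, adjusted p = 0.203, 0.112 and 0.131).

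Because the Adam1 genes are paralogs whose reads the counting could split, they were also set against each other within a sample and summed, both chosen after the data were seen. The ratio of Adam1a to Adam1b FPKM was 1.58, 1.46, 1.51 and 1.49 in the testes samples (control, then cadmium), and 9.17 in Sperm-Control-1, 69.4 in Sperm-Cd-1 and 19.3 in Sperm-Cd-2. Every sperm ratio was above every testes ratio, and the other 3 sperm samples held no Adam1b. With the counts of both genes summed, sperm stood above testes by a log2 fold change of 1.52 in control mice, which was not called (SE 0.64; edgeR, adjusted p = 0.0797), and by 2.16 in cadmium mice (SE 0.57; edgeR, adjusted p = 0.00124).

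Further ADAM genes of the sperm surface were listed in testes and hardly in sperm. Adam2, the partner of ADAM1 in fertilin, was at 1.39 and 3.21 FPKM in control testes, with 0.56 and 2.06 in cadmium testes and listed in no sperm sample. Adam3 was at 2.61 and 3.02 FPKM in control testes, with 2.63 and 2.07 in cadmium testes, again with no sperm sample listed. Adam5, a germ-cell ADAM next to Adam3 on chromosome 8, was at 3.57 and 7.80 FPKM in control testes, 2.77 and 9.02 in cadmium testes, 0.34 in Sperm-Cd-1 and 0 in the other sperm samples. All of these were lower in sperm with no overlap of the groups.

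In control mice the counts of Adam2, Adam3 and Adam5 were 0 in sperm against 31, 41 and 85 in testes, so they were at least 3.65-, 4.83- and 10.0-fold lower (edgeR, adjusted p = 0.0465, 0.0465 and 0.0256). All 3 passed the filter through testes alone, as did Adam3 and Adam5 in cadmium mice. Leaving out Sperm-Control-2 or Sperm-Control-4 ended all 3 calls (edgeR, adjusted p = 0.0766 without the first for each gene, and 0.174, 0.174 and 0.116 without the other), and leaving out Sperm-Control-3 that of Adam2 (0.0680). In cadmium mice Adam3 was at least 5.06-fold lower in sperm (edgeR, adjusted p = 0.00496) and Adam5, with 1 count in sperm, had a log2 fold change of -4.99 (SE 1.10; edgeR, adjusted p = 7.05e-05). Adam2 did not pass the filter there. Adam32, a further germ-cell ADAM of the same locus, was not called in either, with log2 fold changes of -3.92 (SE 1.83; edgeR, adjusted p = 0.113) and -3.26 (SE 1.36; edgeR, adjusted p = 0.0518). It was chosen for mention after its values were seen.

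**Figure D3:**
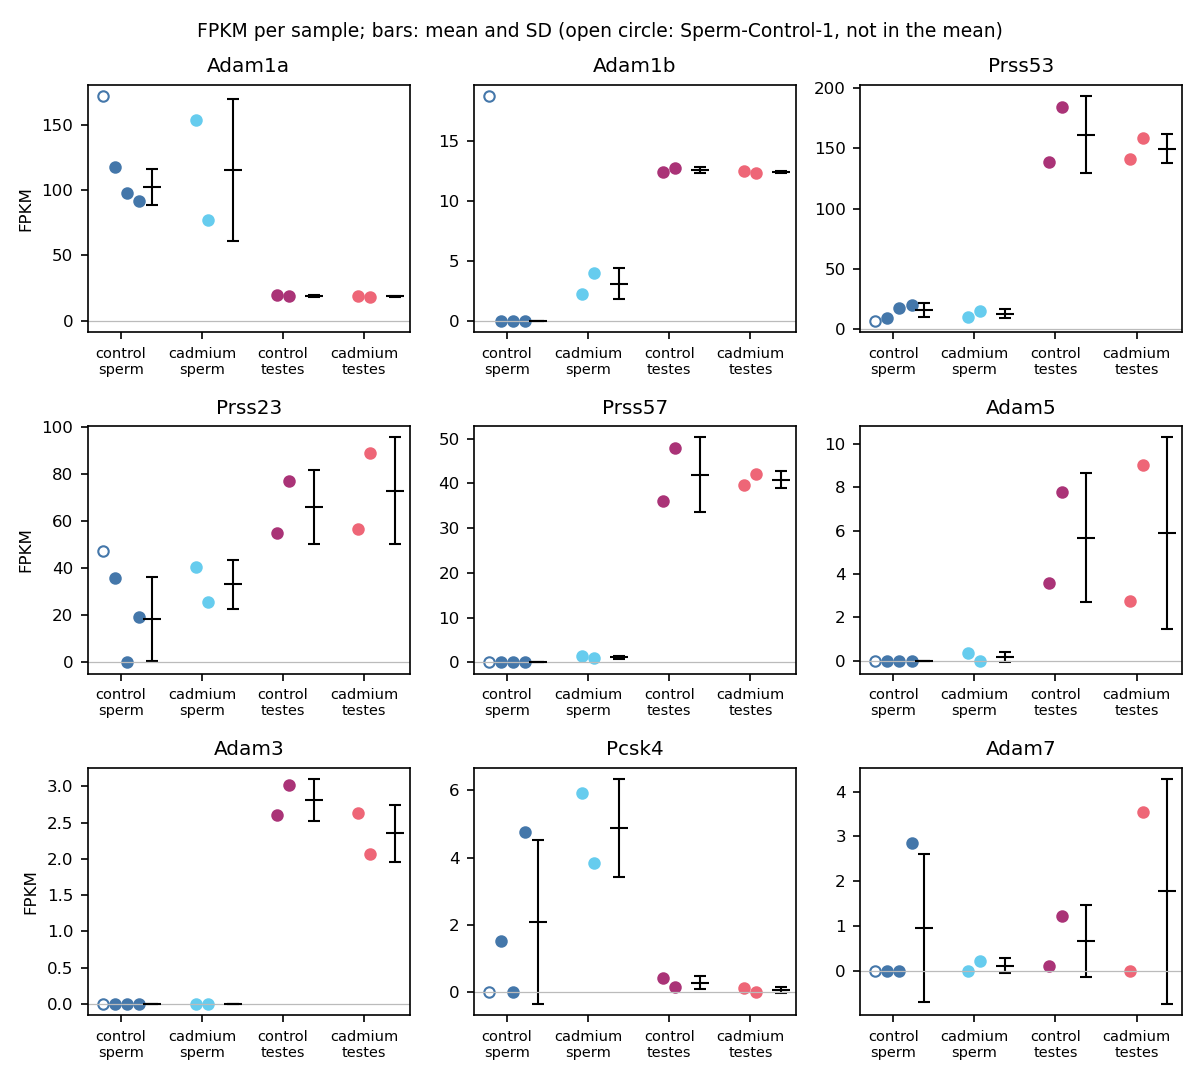
FPKM (y axis, linear) of 9 members in each sample, by group (x axis), with the mean and SD of the group as a bar and Sperm-Control-1, left out of the mean, as an open circle. Adam1a lies above 77 FPKM in every sperm sample and below 20 in every testes sample, while Prss53, Prss57, Adam5 and Adam3 lie higher in testes. Pcsk4 is highest in 1 control and both cadmium sperm samples, and Adam7 in Testes-Cd-2.

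The germ-cell ADAM genes numbered 20, and all 20 were listed in testes and 6 in sperm, where 66.5% of genes with an NM_ transcript were listed in at least 1 sample. Of them 6 passed the filter in control mice, with 1 called higher and 4 lower, and 5 in cadmium mice, with 1 higher and 3 lower, beside the backgrounds of 22% and 31.7%. The 4 called lower in control mice, and Adam3 and Adam5 in cadmium mice, passed the filter through testes alone. Clusters on chromosome 8 held many of those not listed in sperm: Adam24, Adam25, Adam20 and Adam39 at chr8:40675077-40826861 and Adam26b, Adam26a and Adam34 at chr8:43519864-43665560 were listed in no sperm sample and reached at most 1.22 and 0.43 FPKM in testes.

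The broadly expressed and epididymal ADAM genes numbered 9. Adam15, a membrane ADAM found in many cell types, was at 1.34 and 1.95 FPKM in Sperm-Control-2 and 3, at 0.92 and 1.13 in cadmium sperm, at 0.25 in Testes-Cd-1 and at 0 elsewhere. It passed the filter through the sperm samples alone and was called higher in control sperm on 6 counts against 0, at least 5.66-fold (edgeR, adjusted p = 0.0157). The call was lost without either control testes sample (edgeR, adjusted p = 0.883 and 0.899) and with limma on log2(FPKM + 1) or log2(FPKM + 0.1) (adjusted p = 0.236 and 0.263). Adam28 was at 0, 2.19, 6.90 and 0.49 FPKM in control sperm, 1.22 and 1.42 in cadmium sperm and 0.77 to 1.54 in testes, so the groups overlapped. Adam17, the sheddase that releases TNF, was at 5.56 FPKM in Sperm-Control-3 and 0 in the other control sperm samples, and at 0.16 to 0.50 in testes. Adam10, the sheddase of Notch, stayed at or under 0.70 FPKM in every sample.

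Adam7, an ADAM made by the epididymal epithelium and not by germ cells, was uneven within each group. It was at 0.10 and 1.23 FPKM in control testes, 0 and 3.55 in cadmium testes, 0, 0, 0 and 2.85 in control sperm and 0 and 0.23 in cadmium sperm. The summed epididymal markers (Crisp1, Lcn5, Lcn8, Lcn9, Defb15 and Cuzd1) were at 0.16 and 1.13 FPKM in control testes, with 0.58 and 6.36 in cadmium testes, so the testes sample with the higher Adam7 also had the higher sum in each group. The control sums were near the floor: 1 count of Cuzd1 in Testes-Control-1, and 1 count each of Lcn8 and Lcn9 in Testes-Control-2. Lcn5, a lipocalin of the epididymis, was at 3.99 FPKM in Testes-Cd-2 and 0 in the other 9 samples. In sperm the sum did not go with Adam7: it was 5.31, 3.24, 1.23 and 1.77 in Sperm-Control-1 to 4 and 2.50 and 2.31 in cadmium sperm, and Adam7 was at 0 in the samples with the 3 highest sums. The part of epididymal tissue in the Adam7 values was not tested.

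Prss53 fell in sperm in both arms. It was at 138.7 and 184.4 FPKM in control testes, with 141.5 and 158.4 in cadmium testes, against 6.61, 8.68, 17.54 and 19.65 in control sperm and 9.66 and 14.96 in cadmium sperm. The highest sperm value was far below the lowest testes value. The log2 fold change was -3.73 (SE 0.66; edgeR, adjusted p = 1.25e-05) in control mice and -3.35 (SE 0.61; edgeR, adjusted p = 7.42e-07) in cadmium mice. It was called without any 1 sample in both comparisons.

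Prss57, known as a granule protease of neutrophils, was also lower in sperm. It was at 36.08 and 47.86 FPKM in control testes, with 39.56 and 42.13 in cadmium testes, at 1.30 and 0.90 in cadmium sperm and at 0 in all 4 control sperm samples. It lies at chr10:79781474-79794684 and overlaps Fstl3 and Palm. Ptprc, the pan-leukocyte marker, was at 0 in 3 testes samples and 0.07 FPKM in Testes-Cd-2. Of the other leukocyte markers, Cd74 was at 0 to 0.33 FPKM in testes and Cd4 at 0 to 0.48. Cd4 was at 0 to 0.62 FPKM in control sperm and at 1.69 and 1.04 in cadmium sperm. The part of leukocytes in the Prss57 values was not tested. In control mice 0 counts in sperm against 606 in testes made Prss57 at least 71.3-fold lower (edgeR, adjusted p = 4.41e-07). In cadmium mice 7 counts stood against 602, with a log2 fold change of -4.98 (SE 0.71; edgeR, adjusted p = 1.30e-10).

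Prss23, a secreted serine protease, was the most abundant Prss gene in 4 of the 6 sperm samples. Its level was 47.21, 35.97, 0 and 19.05 FPKM in control sperm, 40.47 and 25.62 in cadmium sperm. Testes held 55.03 and 77.22 FPKM in control mice and 56.81 and 88.95 in cadmium mice. No sperm value reached a testes value, yet neither comparison was called: the log2 fold change was -1.92 (SE 0.74; edgeR, adjusted p = 0.0515) in control mice and -0.99 (SE 0.55; edgeR, adjusted p = 0.158) in cadmium mice. The ratio of Prss53 to Prss23 was 1.78 to 2.52 in the testes samples and 0.14 to 1.03 in the 5 sperm samples that listed Prss23.

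The 17 testis serine protease genes were all listed in testes, with a highest value of 2.76 FPKM (Prss54), and 5 of them were listed in sperm. In control mice 2 passed the filter and neither was called, and in cadmium mice none passed. Prss51 was at 10.69 FPKM in Sperm-Control-4, 1.02 in Sperm-Control-2 and 0 in the other control sperm samples, on 6 counts in the 3 tested samples, and its log2 fold change of 2.84 was not called (SE 1.33; edgeR, adjusted p = 0.114). Prss48 was at 2.07 FPKM in Sperm-Control-2 and 0 in the other control sperm samples. The chromosome 9 cluster of Prss42, Prss44, Prss43, Prss45, Prss46 and Prss50 at chr9:110797248-110864629, some of which are needed for meiosis, reached at most 0.86 FPKM in testes and 1.05 in sperm. Among the other serine protease genes, Prss36 was at 4.52 FPKM in Sperm-Control-3 and at or under 0.78 elsewhere, and Prss8 (prostasin, a membrane-anchored protease of epithelia) was at 0 to 2.15 in sperm and 0 to 1.16 in testes.

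Sperm-Control-1 and Sperm-Control-3 listed no convertase, and in every other sperm sample Pcsk4 was the most abundant of the 7. It was at 0, 1.52, 0 and 4.75 FPKM in control sperm and 5.91 and 3.85 in cadmium sperm, while control testes held 0.42 and 0.16 and cadmium testes 0.14 and 0. The cadmium groups did not overlap and the control groups did. It passed the filter through the sperm samples alone in both arms. In cadmium mice 29 counts in sperm stood against 1 in testes, with a log2 fold change of 5.89 (SE 1.14; edgeR, adjusted p = 3.72e-06). In control mice 10 counts stood against 4, with a log2 fold change of 2.61 that was not called (SE 1.50; edgeR, adjusted p = 0.205). The difference between the arms was tested below and was not called.

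Further convertases were scarce. Pcsk7 was at 0.13 to 0.35 FPKM in testes and 0.85 in Sperm-Cd-1. Pcsk5 reached 0.49 in Sperm-Control-2, Pcsk6 0.33 in Testes-Control-1, and the neuroendocrine convertases Pcsk1 and Pcsk2 0.15 and 0.17. The 3 neural ADAM genes without protease activity, Adam11, Adam22 and Adam23, stayed at or under 0.38 FPKM in every sample.

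**Figure D4:**
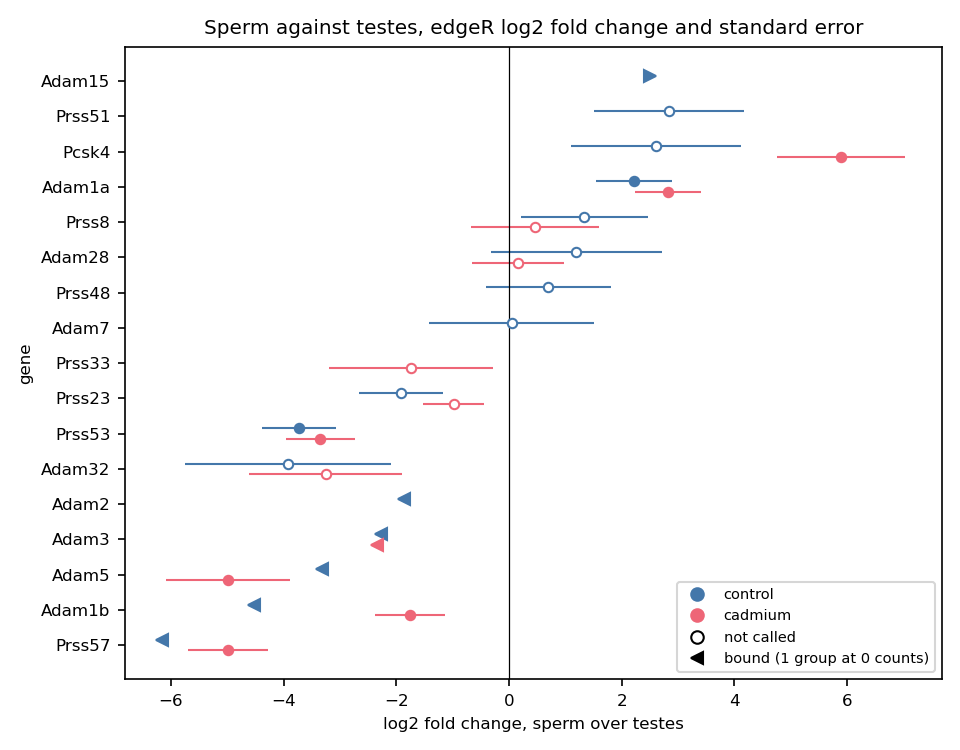
Log2 fold change of sperm over testes (x axis) with its standard error for members that passed the filter (y axis), in control mice (blue) and cadmium mice (red), with open circles where the change was not called and triangles for the bound where 1 group had 0 counts. Adam1a lies right of 0 in both arms and Prss53, Prss57, Adam5, Adam3 and Adam1b left of it.

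Of the 11 members tested in both arms, 6 (54.5%) were called in both in the same direction, as were 14.2% of the 21282 genes tested in both: Adam1a higher, and Adam1b, Adam3, Adam5, Prss53 and Prss57 lower. Of these 6, Adam3 and Adam5 passed the filter through testes alone in both arms, and Adam1b and Prss57 in control mice. There the filter itself favoured a value lower in sperm, so the 54.5% is not a measure of agreement free of the filter. Adam2 and Adam15 were called in control mice and did not pass the filter in cadmium mice, so they were not tested there. Pcsk4 was tested in both arms and called in cadmium mice only. Whether these 3 differ between the arms is a separate test, given below, which could not decide for Adam2 because it was at 0 in every sperm sample.

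The genes known to act with these proteases were compared in the same fits. Of 11 genes needed to make mature ADAM3, 5 passed the filter in control mice and 3 were called lower in sperm (background 17.8%). These were the chaperone gene Clgn and Cmtm2a and Cmtm2b, all 3 at 0 in every sperm sample. At 0 in sperm, they could pass the filter only through testes, which favoured a value lower in sperm. In cadmium mice 4 passed, and Clgn and Cmtm2a were called lower (background 15.4%) while Ace was called higher (background 16.3%). Ace, whose germ-cell form is needed for ADAM3 to reach its place on sperm, was at 12.06, 9.84, 16.79 and 14.77 FPKM in control sperm, 30.91 and 13.02 in cadmium sperm and 5.94 to 8.09 in testes. Its log2 fold change was 1.94 (SE 0.55; edgeR, adjusted p = 0.00256) in cadmium mice and 0.71 (SE 0.88; edgeR, adjusted p = 0.592) in control mice. Of 7 partners of ADAM10 and ADAM17 none passed the filter in either, and of 7 protease inhibitor genes 2 and 1 passed and none was called. Of 6 related proteases and their binding proteins outside the name rule, 1 passed in each: Acrbp, which holds the acrosomal protease proacrosin. It had log2 fold changes of -2.99 (SE 1.34; edgeR, adjusted p = 0.0995) in control and -2.11 (SE 0.65; edgeR, adjusted p = 0.00627) in cadmium mice.

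To ask what cadmium did, cadmium was compared with control within each tissue. In testes 16 members passed the filter and none was called, and none had an unadjusted p under 0.05 by edgeR. The background was 0.015% of all genes. DESeq2 and limma called no member either. Adam1a had a log2 fold change of 0.03 (SE 0.46), Adam1b 0.04 (SE 0.47), Prss53 -0.06 (SE 0.52), Prss57 0.01 (SE 0.49), Prss23 0.21 (SE 0.53) and Adam5 0.13 (SE 0.65). The groups did not overlap for 1 of the 16 tested members, against 18.2% of all genes tested. The 1 was Prss33, at 1.31 and 1.38 FPKM in cadmium testes against 0.52 and 0.57 in control testes, on 10 and 4 counts (log2 fold change 1.33, SE 1.06). Prss33 was named after its values were seen. Adam7, at a log2 fold change of 1.54 (SE 1.22), rested on Testes-Cd-2.

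In sperm 9 members passed the filter and none was called, beside a background of 0.0678%. Adam1b alone had an unadjusted p under 0.05 by edgeR. It was at 0 in the 3 tested control samples and at 2.21 and 3.99 FPKM in cadmium sperm, or at least 5.78-fold higher on 21.6 counts against 0 (edgeR, adjusted p = 0.551). Sperm-Control-1, at 18.76 FPKM, was above both cadmium samples, and with it kept the log2 fold change turned from 5.97 to -0.30. DESeq2 called no member, and limma on log2(FPKM + 0.1) called Adam1b. Pcsk4 had a log2 fold change of 1.19 (SE 1.75), Adam1a 0.19 (SE 0.50), Prss23 0.70 (SE 0.66) and Prss53 -0.15 (SE 0.92), beside a median of 0.43 over all genes tested.

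**Figure D5:**
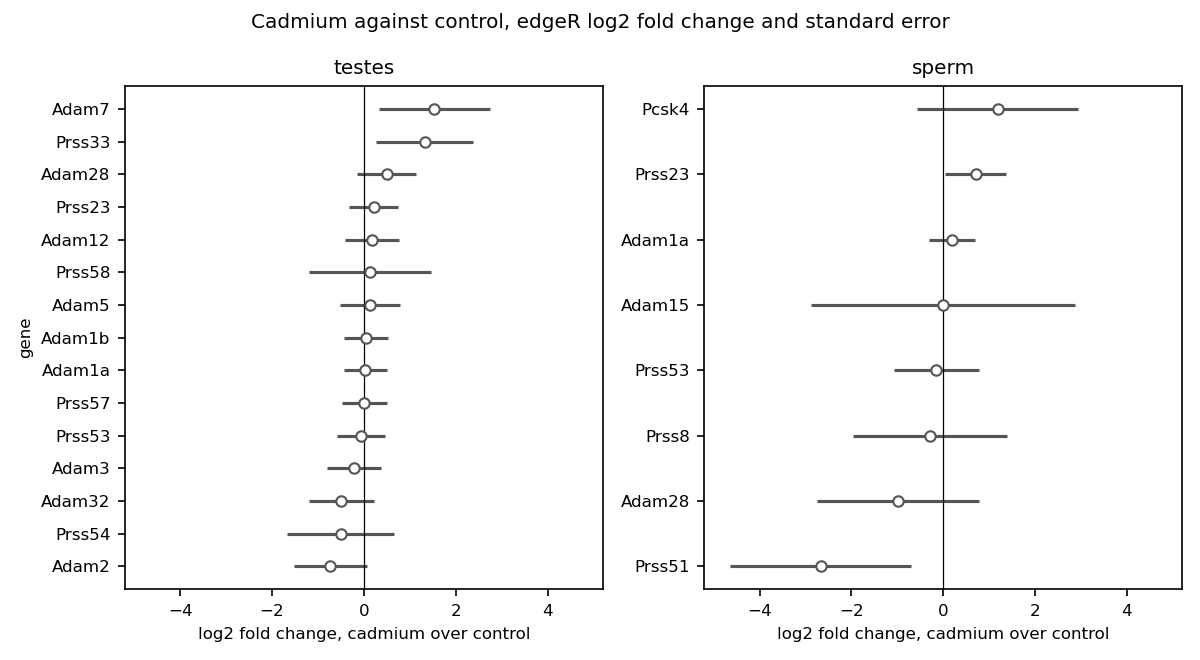
Log2 fold change of cadmium over control (x axis) with its standard error, in testes (left) and sperm (right), for tested members with counts in both groups (y axis). None was called, and the standard errors in sperm are wide, up to 2.88 for Adam15.

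The cadmium effect in sperm was set against that in testes in 1 model of 9 samples. No member of 21 tested was called, beside a background of 0.0396%, and 2 had an unadjusted p under 0.05 by edgeR: Adam1b and Prss57, both at 0 in the tested control sperm (adjusted p = 1.00 for each). DESeq2 and limma called none. Pcsk4 had a log2 fold change of 2.74 (SE 2.04) and Adam15 of -2.59 (SE 2.04). Adam2, Adam3, Prss54 and Prss58 were at 0 in every sperm sample. Their SEs were 528 to 1165, so the edgeR test could not have called them. No gene of the ADAM3, partner, inhibitor or related protease lists was called for cadmium in either tissue. With 2 or 3 samples a group, a change that was not called is not shown to be absent.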

How the data were processed

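Total RNA of 10 samples was sequenced by the authors with a strand-specific paired-end protocol. The submitters' processing notes name HISAT and mm10 and the study's methods name SOAPaligner/SOAP2. The tool that gave the counts, and whether it used strand, is not given in the sources used here. Expected counts, as deposited, are unnormalized estimates per transcript. The FPKM values that the authors deposited are scaled to length and library size. A transcript that a table did not list was taken as 0. Both values were summed by gene over all transcripts of a gene symbol, and for members over NM_ transcripts.

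Rounded sums of all genes were tested with edgeR 4.0.16 in R 4.3.3 (quasi-likelihood, TMM), with each pair of groups fitted alone, after a filter of 1 FPKM in at least 2 samples. Calls needed a Benjamini-Hochberg adjusted p under 0.05 and more than 2-fold. The SE is the log2 fold change over the square root of F, worked back from the test. DESeq2 1.42.0, limma 3.58.1, other filters and scalings, a replicate block and leaving out samples were alternatives. Members and lists were chosen with earlier results of these data known. The members named are Pcsk4, Adam1a, Adam1b, Adam2, Adam3, the convertases, the 3 most abundant of each role, the 10 most abundant in control sperm, called members and those whose samples stand apart. The test was checked on simulated counts. At the spread estimated from these data it missed most of the smaller changes put in, and with control sperm most of the larger ones too. Total counts were 366455 to 2866856 a sample, and fold bounds on a count of 0 use a floor of 3 counts and cover counting error only. No 2 replicates agreed within sampling noise. Protein sequences were not used here, and 1 member is counted with the others but not reported here by name or in the plots. Figures used matplotlib 3.10.9.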

Additional observations from a re-analysis of the deposited data

Results flagged for a closer look

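Among the 4 control sperm samples, 17 values were examined: levels of named members, the number of members listed and their share of FPKM. Of these, 7 had 1 sample far from the others by Dixon's limit, which chance passes in about 1 of 20 groups. All 7 were levels of members. For most of them the other 3 samples were at 0, so a single listed value was enough. Sperm-Control-2 stood apart in Adam11 (0.21 FPKM), Pcsk5 (0.49) and Prss48 (2.07). Sperm-Control-3 stood apart in Adam17 (5.56), and Sperm-Control-4 in Adam7 (2.85) and Prss51 (10.69, with the others at up to 1.02). Sperm-Control-1 stood apart in Adam1b (18.76 FPKM, the others at 0).

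Sperm-Control-1 was outside the tests, and it held more than any tested control sperm sample of Adam1a (172 against up to 117.6 FPKM), Adam1b (18.76 against 0) and Prss23 (47.21 against up to 35.97).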

How the results depend on the processing

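Between control sperm and control testes, 8 members were called. DESeq2 called 5 and gave no adjusted p for Adam15, Adam2 and Adam3. No filter on low values left 3, edgeR's own expression filter 5 of 6 tested, and Sperm-Control-1 kept with a replicate block 3. Leaving out 1 sample gave 1 to 6. Prss53 and Prss57 were called under every alternative in which they were tested. With either control testes sample left out, Prss57 did not pass the filter and was not tested. For cadmium sperm against cadmium testes, 7 were called, 7 with the replicate block, and 3 to 6 with 1 sample left out. Adam3, Pcsk4, Prss53 and Prss57 kept the call under every alternative in which they were tested. Pcsk4 did not pass the filter with either cadmium sperm sample left out, nor Adam3 with either cadmium testes sample left out. Those fits could not test them. For cadmium in sperm, 1 was called by limma on log2(FPKM + 0.1), and another scaling moved the median of all genes from 0.43 to 0.27. For cadmium in testes 0 were called under every alternative, the replicate block included.

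The labels tie no samples by replicate number. With 2 pairs, the deviations of same-numbered samples correlated at 0.495 in testes and 0.103 between cadmium sperm and testes. What same-numbered samples share is not given in the sources used here, and the main tests took no account of it. Over all genes the count of calls between control sperm and testes was 5373, against 1344 with no filter, 2627 with edgeR's filter, 3315 with DESeq2, 1215 among NM_ genes alone, 1404 with the block and 880 to 4335 with 1 sample left out. In cadmium mice it was 8169, against 5070 with DESeq2, 2291 among NM_ genes, 4271 in 1 model of 9 samples and 1613 to 5257 with 1 sample left out. For cadmium in testes it was 4, against 73 with no filter, 72 with the block, 0 with limma and 4 to 25 with 1 sample left out. In sperm it was 14, against 6 with other size factors, 5 with DESeq2, 0 and 1160 with limma and 7 to 38 with 1 sample left out. The causes were not tested.

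Of 815 values of named members under alternatives, 681 kept direction and side of the threshold, 94 turned sign without a call in either setting, 36 lost the call, 4 gained it, and 0 called values turned sign. Of the 94, 88 had a reported log2 fold change within 1 of 0. The largest turns among the comparisons of pairs of groups were Adam1b for cadmium in sperm, from 5.97 to -0.30 with Sperm-Control-1 kept, and Adam7 between control sperm and testes, from 0.04 to -5.09 with Sperm-Control-1 kept and the replicate block. Prss23 gained it between control sperm and testes with other size factors (edgeR, adjusted p = 0.0397). At 3 counts or more, the mean number of members was 5.75 in control sperm (9.75 listed), 11 in cadmium sperm, 25.5 in cadmium testes and 26.5 in control testes. As a share of NM_ FPKM, members took 0.356% in cadmium sperm, 0.712% in cadmium testes, 0.437% in control sperm and 0.724% in control testes. In sperm 63 members stayed under 10 counts in every sample, and in testes 54.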
